A study of Mus musculus with 12 samples.

Results

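The genes of the chemokines and of the receptors that bind them were measured by RNA-seq in mouse lung endothelial cells (MLECs). Every protein-coding row of the deposited table was taken whose mouse symbol starts with Ccl, Cxcl, Cx3cl, Xcl, Ccr, Cxcr, Cx3cr, Xcr or Ackr and a digit. Of 60 rows that matched, 2 were not protein coding and 3 were left out by the rule and are not analysed here. This left 55 of the 28689 rows of the table, 34 ligands and 21 receptors.

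The series compared MLECs of mice in which the genes of the zinc finger transcription factors Sp1 and Sp3 were targeted in endothelial cells (dKO) with MLECs of control mice (CTR), in 6 libraries each. Mice of both groups carried floxed alleles of both genes (Sp1 fl/fl and Sp3 fl/fl), were males of 6 to 8 weeks and received tamoxifen for 5 consecutive days. The dKO mice also carried VE-CAD-CreERT2, a tamoxifen-inducible Cre under the VE-cadherin promoter, whereas the CTR mice were littermates without it, which the labels call WT. Cells were selected from lung with beads against CD31, selected again with beads against ICAM2, and used at passages 1 to 3. Recombination in cells of other types that came through the selection was not measured. Whether each library came from its own mouse is not given, so p-values measure the spread between libraries.

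Chemokines are small secreted proteins that guide leukocytes. They are named by the spacing of their first cysteines (CC, CXC, CX3C and C), are held on heparan sulfate at the endothelial surface and signal through G protein-coupled receptors that lower cAMP and drive migration. CC ligands act mainly on monocytes, macrophages, eosinophils and T cells, CXC ligands with the glutamate-leucine-arginine (ELR) motif on neutrophils, and the Cxcr3 ligands on activated T cells. Atypical receptors bind chemokines without this signalling and remove or transport them.

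Sp1 was lower in each dKO library (8.42 to 12.1 FPKM, fragments divided by exon length and library total) than in each CTR library (19.4 to 23.7 FPKM). Sp3 overlapped between the groups (22.5 to 26.9 against 24.2 to 31.1 FPKM) and was not called lower (-0.14, limma adjusted p 0.0902). The libraries labelled as knockout of both genes thus still held transcripts of both. FPKM of a whole gene do not show which exons these transcripts held. By immunofluorescence, the paper reports less Sp1 and Sp3 protein in the aortic endothelium of dKO mice. Libraries held 15523054 to 17938286 fragments. Macrophage markers summed to 830 to 1387 FPKM in CTR and 2360 to 5398 FPKM in dKO libraries, and 11 of 12 were called higher in dKO and 1 lower. Endothelial markers, all 12 of them detected, summed to 221 to 344 FPKM in CTR and 403 to 550 FPKM in dKO libraries, and 11 were called higher. Neutrophil markers summed to 19.6 to 117 FPKM in CTR and 112 to 317 FPKM in dKO libraries, with 2 of 7 abundant enough to test, both called higher. Fibroblast markers summed to 2127 to 2699 and 829 to 1658 FPKM, and T and NK cell markers to no more than 1.90 FPKM in any library. The dKO library of replicate 5 stood apart for many chemokines, so results that rest on it are given with and without it.

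Ligand transcripts were far more abundant in dKO MLECs. Summed over the 34 ligands, they reached 2115 to 2934 FPKM in the dKO libraries and 537 to 775 FPKM in the CTR libraries. The 21 receptors summed to 83.7 to 131 FPKM in dKO and 51.4 to 84.8 FPKM in CTR libraries. Groups of ligands did not move as one. All 5 CC ligands known as monocyte chemoattractants and eotaxins passed the test, 4 of them higher and Ccl11 lower in dKO, while the neutrophil-directed CXC ligands, apart from Cxcl15, stayed under 2 FPKM outside replicate 5 of dKO. In bulk samples such as these, fewer cells of a type and less RNA per cell cannot be told apart, and the rise in macrophage markers accompanies the values below. Its part in them was not tested.

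Levels were compared on the log2(FPKM + 1) scale in limma, for the 12467 genes that reached 1 FPKM in 6 or more of the 12 libraries, with p-values adjusted over all of them. A difference below is dKO minus CTR on that scale, with its standard error (SE), and is smaller than the log2 ratio for genes of few FPKM. Of the 55 genes, 23 were tested, 18 ligands and 5 receptors. At an adjusted p under 0.05, 13 were higher in dKO, against 20.4% of all genes tested, and 2 were lower, against 32.6%. With an absolute difference over 1.5 as well, 10 were higher, against 1.43% of all genes, and 1 was lower, against 0.553%. The median difference of the 23 was 0.71, and that of all genes tested was -0.095. In 12 of the 23, each dKO library was above each CTR library, which held for 11.3% of all genes tested. Without overlap the exact two-sided permutation p must be 0.00216, the smallest that 6 libraries against 6 allow. It therefore adds nothing to the lack of overlap. Ccl12 and Cxcl10 reached the minimum level only through the dKO libraries, and Ccl4 and Ccl8 had CTR medians under it (0.272 and 0.848 FPKM). The counts past the fold threshold and without overlap include these genes and were made only among genes that passed the minimum level. A test of every row was therefore also made, in which 18 of all 55 were higher (10.4% of all rows) and 2 lower (15.9%). Without replicate 5 of dKO, 13 of the 23 were higher and 1 lower, and 9 and 1 were past the fold threshold as well. The shares of all genes called in that fit are not given here, so these counts show only whether the calls stayed.

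**Figure D1:**
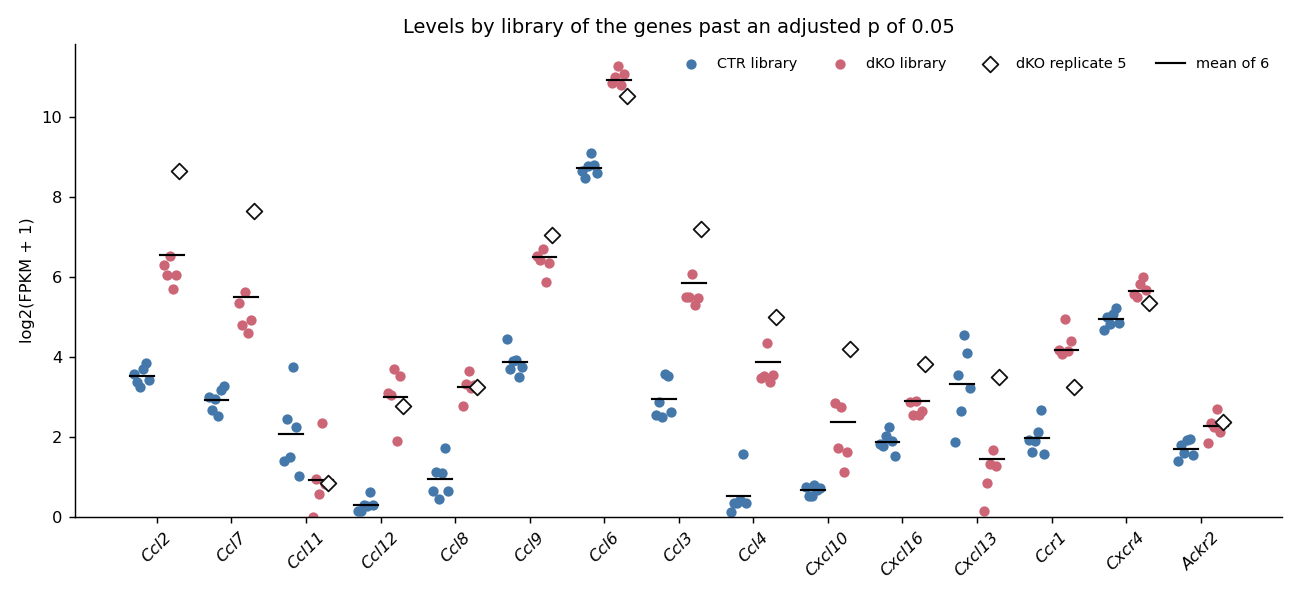
Levels of the 15 genes past an adjusted p of 0.05, as log2(FPKM + 1) on the vertical axis, with 1 point per library for 6 CTR (blue) and 6 dKO (red) libraries, dKO replicate 5 as an open diamond, and bars at the means. In 12 of the genes all dKO points lie above all CTR points; Ccl11, Cxcl13 and Ackr2 overlap, and replicate 5 is far above the other dKO libraries for Ccl2, Ccl7 and Ccl3.

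The monocyte chemoattractants lie side by side on chromosome 11 in the order Ccl2, Ccl7, Ccl11, Ccl12 and Ccl8. Ccl2, the main ligand of the monocyte receptor Ccr2 (chr11:81926397-81928279), ran from 8.55 FPKM (median 10.3) to 13.4 FPKM in CTR and from 50.9 FPKM (median 71.7) to 406 FPKM in dKO. The groups did not overlap, and the highest value was that of replicate 5. The difference was 3.02 (SE 0.39, limma adjusted p 5.06e-05) and, without replicate 5, 2.60 (SE 0.15, adjusted p 3.97e-07). Ccl7, a monocyte chemoattractant that also binds Ccr1 and Ccr3, ran from 4.72 FPKM (median 6.87) to 8.73 FPKM in CTR and from 23.3 FPKM (median 34.7) to 199 FPKM in dKO. It showed the same picture as Ccl2, with no overlap and replicate 5 on top. Its difference was 2.56 (SE 0.41, limma adjusted p 0.00025), or 2.13 without replicate 5 (SE 0.19, adjusted p 7.85e-06).

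Ccl12 and Ccl8 were low in CTR MLECs and several times higher in dKO MLECs. Ccl12, a mouse Ccr2 ligand, ran from 0.107 FPKM (median 0.216) to 0.544 FPKM in CTR, resting on 13 fragments in all 6 libraries together, and from 2.7 FPKM (median 7.42) to 12 FPKM in dKO, on 420 fragments. Every dKO library was above every CTR library, by a ratio of medians of 34.3, and the difference was 2.71 (SE 0.24, limma adjusted p 3.36e-06). Ccl8, another monocyte chemoattractant, ran from 0.355 FPKM (median 0.848) to 2.29 FPKM in CTR and from 5.80 FPKM (median 8.66) to 11.6 FPKM in dKO. Again there was no overlap, and the difference was 2.31 (SE 0.20, limma adjusted p 2.81e-06). Neither of these genes peaked in replicate 5. Both peaked in replicate 3, the dKO library with the highest macrophage marker sum (5398 FPKM). Their lowest dKO libraries, replicate 4 for Ccl12 and replicate 1 for Ccl8, were not the one with the lowest sum (replicate 5, 2360 FPKM). The part of macrophage content in these levels was not tested.

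Ccl11, the eosinophil attractant eotaxin (chr11:81948618-81953781), lies between Ccl7 and Ccl12 and was the exception in this cluster. It ran from 1.03 FPKM (median 2.81) to 12.4 FPKM in CTR and from 0 FPKM (median 0.785) to 4.12 FPKM in dKO, so the groups overlapped, with the highest library of each being replicate 4. The difference was -1.14 (SE 0.45, limma adjusted p 0.0485, exact two-sided permutation p 0.0455). This call depended on single libraries. It was lost when replicate 2, 4 or 5 of CTR or replicate 1, 2, 3, 5 or 6 of dKO was left out, with an adjusted p of 0.0755 without replicate 5 of dKO and a difference of -0.80 without replicate 4 of CTR.

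**Figure D2:**
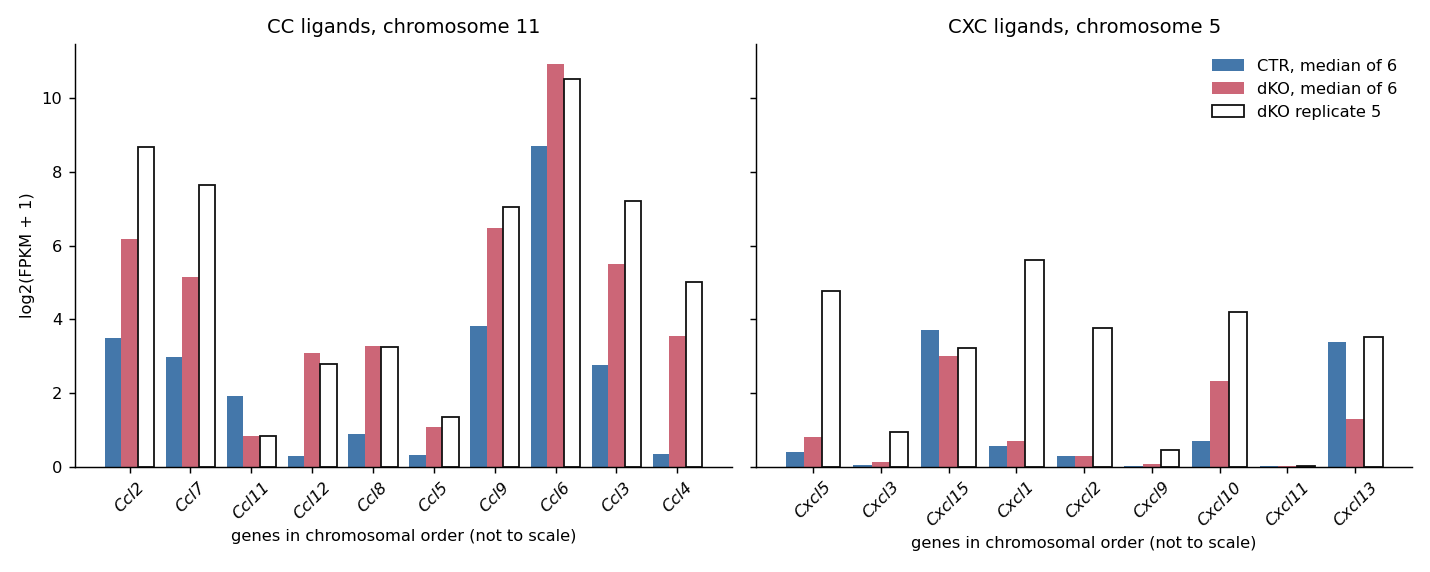
Levels of the CC ligands of chromosome 11 and the CXC ligands of chromosome 5 in chromosomal order, as log2(FPKM + 1), with bars for the median of 6 CTR libraries, the median of 6 dKO libraries and dKO replicate 5 alone. On chromosome 11 each gene but Ccl11 has a higher dKO than CTR median, and on chromosome 5 Cxcl5, Cxcl1 and Cxcl2 are high in replicate 5 alone.

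A second run of CC ligand genes on chromosome 11 holds Ccl5, Ccl9, Ccl6, Ccl3 and Ccl4, CC ligands that macrophages are known to make. Of these 5, the 4 tested were higher in dKO. Ccl6 (chr11:83478708-83483913), a rodent CC chemokine of myeloid cells, was the most abundant of all 55 genes and ranked 14 of the whole table by mean FPKM, at rank 59 in CTR and rank 6 in dKO. It ran from 356 FPKM (median 420) to 555 FPKM in CTR and from 1473 FPKM (median 1949) to 2472 FPKM in dKO. The groups were far apart, and replicate 5 was the lowest dKO library. The difference was 2.19 (SE 0.13, limma adjusted p 2.6e-07), and Ccl6 alone made up 61.4 to 71.5% of the summed ligand FPKM in CTR and 55.0 to 85.9% in dKO libraries.

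The promoter of Ccl6 is printed because this gene dominates the ligand total. Promoters came from the RefSeq table (GRCm38.p6, 250 bases before to 50 after the start), which held 40 of the 55 genes, and only the 250 bases before the RefSeq start are printed, 5′ to 3′ on the gene's strand, with positions from an exact match to GRCm39. Ccl2, Ccl4, Ccl5, Ccl7, Ccl11, Ccl26, Ccl27al, Ccr7, Ccr10, Cxcl5, Cxcl11, Cxcl16, Cxcl17 and Cxcr5 were among those not matched in it. On both strands, 4 motifs were searched, with overlapping matches of 1 motif merged: the GC box bound by Sp factors (GGGCGG), a kappaB-like motif (GGG and TTCC with any 3 bases between them), an interferon element (GAAA and GAAA with any 2 bases between them) and a TATA box (TATAAA). Ccl6 (chr11:83483914-83484163, minus strand) held none of them in the whole window and is therefore in lower case throughout.
Ccl6: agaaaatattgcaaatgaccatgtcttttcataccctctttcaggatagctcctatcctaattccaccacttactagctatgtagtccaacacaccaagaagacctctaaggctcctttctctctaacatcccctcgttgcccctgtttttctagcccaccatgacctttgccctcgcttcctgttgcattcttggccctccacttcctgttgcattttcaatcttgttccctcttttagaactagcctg
Over the 40 genes, a GC box was found in 9 (22.5%), against 38.2% of the promoters of all 27025 genes, and a TATA box in 14 (35.0%), against 15.7%. The kappaB-like motif was found in 8 (20%, against 6.31%) and the interferon element in 3 (7.5%, against 3.99%). Of the 9 genes higher in dKO with a promoter in the table, Cxcr4 alone had a GC box. These are counts of letters in short windows and say nothing about binding.

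Ccl9, Ccl3 and Ccl4 rose with Ccl6 at lower levels. Ccl9 (chr11:83463745-83473161), a Ccr1 ligand, ran from 10.3 FPKM (median 13.2) to 20.7 FPKM in CTR and from 58.2 FPKM (median 88.9) to 131 FPKM in dKO, with a difference of 2.63 (SE 0.18, limma adjusted p 6.46e-07). Ccl3, or MIP-1 alpha (chr11:83538670-83540191), ran from 4.65 FPKM (median 5.74) to 11 FPKM in CTR and from 38.3 FPKM (median 44.4) to 147 FPKM in dKO. Neither gene overlapped between the groups, and both were highest in replicate 5. Ccl3 differed by 2.90 (SE 0.32, limma adjusted p 1.29e-05), or by 2.63 without replicate 5. Ccl4, or MIP-1 beta (chr11:83553383-83555509), ran from 0.0869 FPKM (median 0.272) to 1.95 FPKM in CTR, on 36 fragments in all, and from 9.29 FPKM (median 10.6) to 31.1 FPKM in dKO, on 1037. It had the greatest difference of the 23 genes, 3.35 (SE 0.30, limma adjusted p 3.45e-06), with a ratio of medians of 39.1. The highest CTR value belonged to replicate 5 of that group and was still far below the lowest dKO library.

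Ccl5 (RANTES), which draws T cells and monocytes, was too low to be tested in the filtered table. It ran from 0.184 FPKM (median 0.245) to 0.441 FPKM in CTR and from 0.871 FPKM (median 1.12) to 2.79 FPKM in dKO, without overlap. In the test of every row it was higher in dKO by 0.85 (limma adjusted p 0.00165).

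The remaining 10 CC ligands, most of them made by epithelium, lymphoid stroma or dendritic cells, were scarce. Ccl27a, a skin-homing ligand, was the only one tested, at 1.18 ± 0.27 FPKM in CTR and 1.29 ± 0.42 FPKM in dKO (SD, n = 6 each). Its difference of 0.065 (SE 0.13, limma adjusted p 0.679) was within the spread. Ccl27a has near-identical copies, Ccl27al and Ccl27b among them, as has Ccl19, so reads of these genes may be split and their levels are uncertain. Ccl25, the thymus and gut ligand of Ccr9, was the 1 gene of the 55 that was lower in each dKO library (0.356 to 0.644 FPKM) than in each CTR library (0.769 to 1.07 FPKM). In the test of every row its difference was -0.29 (limma adjusted p 0.00462), but its exons overlap those of Elavl1 on the opposite strand, and whether the counting used strand is not given in the sources used here. Ccl17, a Ccr4 ligand of dendritic cells, had a median of 0.114 FPKM in CTR and 0.727 FPKM in dKO, with overlap, and was higher in the test of every row (0.48, limma adjusted p 0.0468) but not in limma-voom on all rows with at least 10 fragments (adjusted p 0.101), with 7 fragments in CTR and 32 in dKO. Ccl20, Ccl22, Ccl26, Ccl28, Ccl27al, Ccl27b and Ccl19 had medians under 0.5 FPKM in both groups, although Ccl20 reached 1.29 FPKM in replicate 5 of dKO.

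The ELR CXC ligands, which recruit neutrophils through Cxcr1 and Cxcr2, lie together on chromosome 5. Cxcl15 (lungkine), a lung epithelial member, was tested and ran from 3.48 FPKM (median 12.1) to 35.0 FPKM in CTR and from 3.94 FPKM (median 7.05) to 13.7 FPKM in dKO. The ranges overlapped widely, and the difference of -0.46 (SE 0.45, limma adjusted p 0.406) did not pass the test. Cxcl1, Cxcl2, Cxcl3 and Cxcl5 were not tested, being low in 11 of the 12 libraries. Cxcl1 was at 0.312 to 0.580 FPKM in CTR, at 0.304 to 0.684 FPKM in 5 dKO libraries and at 48.1 FPKM in replicate 5. Cxcl2 was at 0.0848 to 0.360 FPKM in CTR, at 0 to 0.385 FPKM in the same 5 libraries and at 12.6 FPKM in replicate 5. Cxcl5 was at 0.0941 to 0.678 FPKM, at 0.329 to 1.94 FPKM and at 26.3 FPKM, respectively. A single library thus carried nearly all the signal of 3 neutrophil chemokines, and their dKO means describe that library, not the group. Cxcl3 reached 0.930 FPKM there and 0.0488 to 0.295 FPKM in the other dKO libraries.

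Promoters of Cxcl1, Cxcl2 and Cxcl3 are printed because these genes peaked together in 1 dKO library, although Cxcl3 reached only 0.930 FPKM there. Cxcl5, which was also high there, had no promoter to print. That of Cxcl10, described next, is printed because it peaked in the same library. Capitals mark the kappaB-like motif and, in Cxcl10, also the interferon element GAAAGTGAAA, at -213 to -204 from the start. Cxcl1 (chr5:91038854-91039103), Cxcl2 (chr5:91051508-91051757) and Cxcl3 (chr5:90933710-90933959) are on the plus strand and Cxcl10 (chr5:92496749-92496998) on the minus strand, all in GRCm39.
Cxcl1: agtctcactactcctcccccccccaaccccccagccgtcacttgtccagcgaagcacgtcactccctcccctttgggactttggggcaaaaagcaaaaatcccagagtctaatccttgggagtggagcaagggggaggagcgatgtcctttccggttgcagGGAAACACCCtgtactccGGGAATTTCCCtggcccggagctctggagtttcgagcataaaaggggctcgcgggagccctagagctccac
Cxcl2: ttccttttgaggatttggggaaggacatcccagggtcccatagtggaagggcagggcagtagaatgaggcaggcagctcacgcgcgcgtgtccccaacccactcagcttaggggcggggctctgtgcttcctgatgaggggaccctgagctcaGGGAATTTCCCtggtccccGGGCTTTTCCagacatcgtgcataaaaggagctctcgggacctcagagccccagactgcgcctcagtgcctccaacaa
Cxcl3: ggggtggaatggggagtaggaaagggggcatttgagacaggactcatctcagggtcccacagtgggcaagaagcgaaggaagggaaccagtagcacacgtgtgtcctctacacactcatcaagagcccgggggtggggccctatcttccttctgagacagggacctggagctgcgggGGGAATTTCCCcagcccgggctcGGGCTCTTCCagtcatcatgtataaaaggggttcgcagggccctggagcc
Cxcl10: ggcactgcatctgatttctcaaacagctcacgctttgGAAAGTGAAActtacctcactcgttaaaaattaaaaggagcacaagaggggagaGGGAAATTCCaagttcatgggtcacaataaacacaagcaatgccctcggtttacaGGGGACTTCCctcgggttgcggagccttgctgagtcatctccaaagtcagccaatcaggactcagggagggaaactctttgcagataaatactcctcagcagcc
All 4 windows held the kappaB-like motif at 2 places, and 8 genes in all had the motif. The 11-base run GGGAATTTCCC was present in the first 3, at -71 to -61 in Cxcl1, -97 to -87 in Cxcl2 and -73 to -63 in Cxcl3. The other genes with the motif were Ccl9, Ccl20, Ccr3 and Ccr6. Of these, Ccl20 also stood far above the other dKO libraries in replicate 5 (1.29 against 0 to 0.0453 FPKM), on 32 fragments. Ccl9 was highest there too (131 against at most 103.5 FPKM), and Ccr3 and Ccr6 were at 0 FPKM there. Ccl3, Cxcl13, Cx3cl1 and Ackr1, which also stood far above the other dKO libraries in replicate 5, had no kappaB-like motif in their windows. Any part of the motif in these levels was not tested. Cxcl2 also had a GC box, left in lower case here.

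Of the 3 Cxcr3 ligands, which interferon gamma induces, only Cxcl10 was abundant enough to test. Cxcl10 (chr5:92494497-92496748) ran from 0.429 FPKM (median 0.62) to 0.737 FPKM in CTR and from 1.19 FPKM (median 4.01) to 17.4 FPKM in dKO. Each dKO library was above each CTR library, but the dKO values were widely spread, with replicate 5 on top. The difference was 1.72 (SE 0.41, limma adjusted p 0.00337), and without replicate 5 it fell under the fold threshold, at 1.35 (SE 0.27, adjusted p 0.00159). Its exons overlap those of Art3 on the opposite strand. Cxcl9 and Cxcl11 stayed at or under 0.360 FPKM in each library.

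The other CXC ligands went in different directions. Cxcl16, a membrane-bound scavenger of oxidised lipid and the ligand of Cxcr6 (chr11:70344517-70352620), ran from 1.89 FPKM (median 2.63) to 3.71 FPKM in CTR and from 4.82 FPKM (median 5.79) to 13.3 FPKM in dKO. There was no overlap, and the difference was 1.02 (SE 0.20, limma adjusted p 0.00096), or 0.83 without replicate 5 (SE 0.12, adjusted p 0.000199). Its exons overlap those of Med11 and Zmynd15 on the opposite strand. Cxcl13, the B cell attractant (chr5:96104810-96108927), ran from 2.65 FPKM (median 9.52) to 22.6 FPKM in CTR and from 0.112 FPKM (median 1.45) to 10.4 FPKM in dKO. Replicate 5 alone overlapped the CTR range, and the other 5 dKO libraries, at 0.112 to 2.18 FPKM, were all below it. The difference was -1.86 (SE 0.54, limma adjusted p 0.0108, exact two-sided permutation p 0.0173) with replicate 5 and -2.27 (SE 0.43, adjusted p 0.00112) without it.

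Cxcl14, a ligand of skin and stromal cells (chr13:56436352-56444603), was the second most abundant gene of the set by its mean over all 12 libraries and in CTR. By its mean in dKO it ranked below Ccl6, Ccl2, Ccl9, Ccl3 and Ccl7. By its dKO median, however, it was above Ccl3 (44.4 FPKM) and Ccl7 (34.7 FPKM), whose dKO means replicate 5 raised. It ran from 22.1 FPKM (median 76.4) to 157 FPKM in CTR and from 39.9 FPKM (median 52.6) to 74.5 FPKM in dKO. All dKO values fell within the CTR range, and the difference of -0.39 (SE 0.39, limma adjusted p 0.415, exact two-sided permutation p 0.411) did not pass. Cxcl12, the homing ligand of Cxcr4 that stromal and endothelial cells make, was at 43.8 ± 17.3 FPKM in CTR and 35.6 ± 13.4 FPKM in dKO (SD, n = 6 each). It differed by -0.28 (SE 0.28, limma adjusted p 0.410). Cxcl17, a mucosal ligand, was at 2.03 ± 0.82 and 1.94 ± 0.62 FPKM (SD, n = 6 each) and differed by -0.017 (SE 0.19, limma adjusted p 0.946). In the CTR group, replicate 4 had the highest Cxcl12, Cxcl13, Cxcl15 and Ccl11 and the lowest Cxcl14. Cx3cl1 (fractalkine), the membrane-tethered ligand of inflamed endothelium, was at 1.54 to 2.0 FPKM in CTR and, in dKO, at 4.14 FPKM in replicate 5 and 1.04 to 2.13 FPKM in the others. Its difference was -0.053 (SE 0.19, limma adjusted p 0.829), or -0.24 (SE 0.11, adjusted p 0.0776) without replicate 5.

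**Figure D3:**
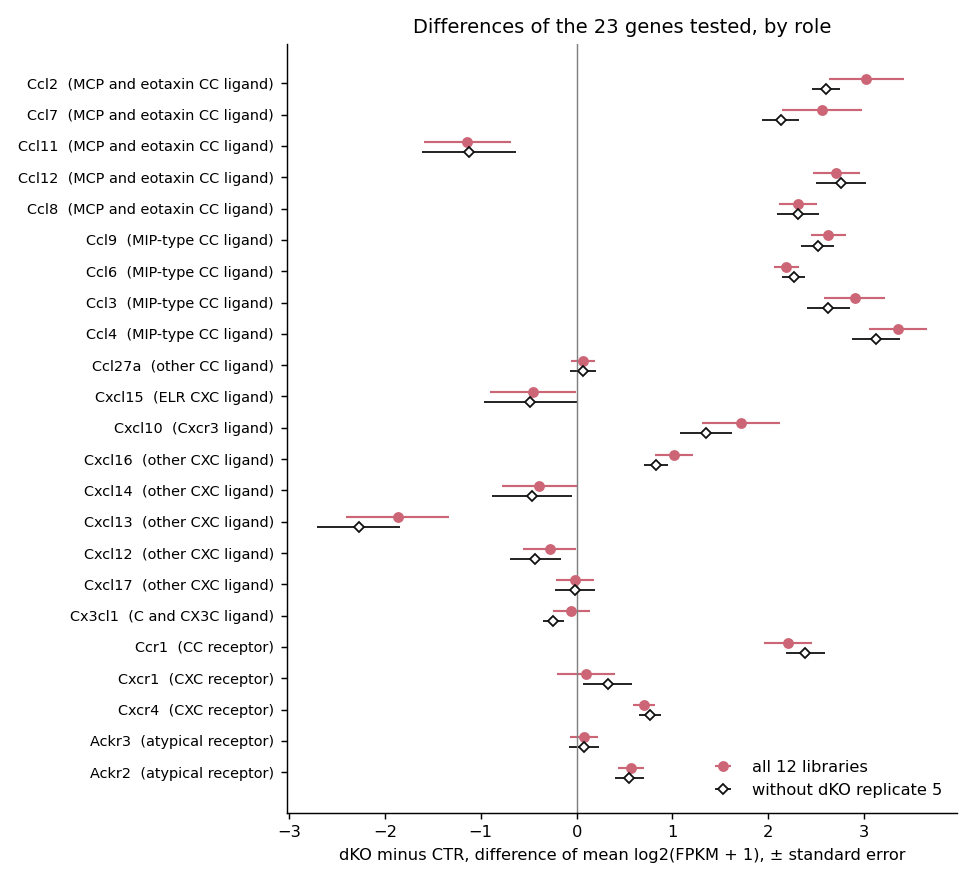
Differences of mean log2(FPKM + 1), dKO minus CTR, for the 23 genes tested in order of role, with bars for 1 standard error, over all 12 libraries (red) and without dKO replicate 5 (open diamonds). The 9 tested CC ligands of the monocyte and MIP groups lie between -1.14 and 3.35, with Ccl11 the only negative one, and leaving out replicate 5 lowers the differences of Ccl2, Ccl7, Ccl3, Cxcl10 and Cxcl16 and raises that of Ccr1.

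Most receptors were scarce, as 16 of the 21 did not reach the minimum level. Ccr1, the receptor of Ccl3, Ccl6, Ccl7 and Ccl9 on myeloid cells (chr9:123762161-123768734), was the only one of the 9 CC receptors to be tested. It ran from 1.95 FPKM (median 2.76) to 5.36 FPKM in CTR and from 8.49 FPKM (median 16.9) to 30.1 FPKM in dKO. The groups did not overlap. Replicate 5 was the lowest dKO library and replicate 3 the highest, as for the macrophage marker sum (2360 and 5398 FPKM), whose part was not tested. The difference was 2.2 (SE 0.25, limma adjusted p 1.69e-05), or 2.39 without replicate 5 (SE 0.21, adjusted p 6.04e-06). Ccr2, the Ccl2 receptor of monocytes, stayed at or under 0.219 FPKM in each library. It was higher in the test of every row (0.14, limma adjusted p 0.0189), although replicate 5 held only 2 of its fragments. The ligands of Ccr2 were thus measured in dKO MLECs at up to 406 FPKM (Ccl2 in replicate 5, and 91.4 FPKM in the other dKO libraries), against at most 0.219 FPKM of the receptor itself. Ccr3, Ccr4, Ccr6, Ccr7, Ccr9 and Ccr10 were under 0.5 FPKM in each library.

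Cxcr4, the Cxcl12 receptor of leukocytes and sprouting endothelium (chr1:128515936-128520044), was the most abundant receptor. It ran from 24.4 FPKM (median 29.6) to 36.6 FPKM in CTR and from 39.7 FPKM (median 48.4) to 62.9 FPKM in dKO. The groups did not overlap, though the gap was narrow, between 36.6 and 39.7 FPKM. The difference was 0.71 (SE 0.12, limma adjusted p 0.000293), or 0.77 without replicate 5. Cxcr1, a neutrophil receptor, was at 7.93 ± 3.05 FPKM in CTR and 8.92 ± 4.22 FPKM in dKO (SD, n = 6 each). It differed by 0.098 (SE 0.30, limma adjusted p 0.803). Cxcr2, the main neutrophil receptor of the ELR ligands in mice, stayed at or under 0.173 FPKM in each library. Cxcr3, the receptor of Cxcl9, Cxcl10 and Cxcl11, was at 0.166 to 0.479 FPKM in CTR and 0.558 to 1.32 FPKM in dKO, without overlap, and was higher in the test of every row (0.56, limma adjusted p 0.00225). Cxcr5, Cxcr6, Xcr1 and Cx3cr1 had medians of no more than 0.201 FPKM in either group.

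The promoters of Cxcr4 (chr1:128520037-128520286, minus strand) and of its ligand Cxcl12 (chr6:117145246-117145495, plus strand, inside the annotated span of the gene) are printed because both hold GC boxes, in capitals, while the receptor rose and the ligand did not pass the test.
Cxcr4: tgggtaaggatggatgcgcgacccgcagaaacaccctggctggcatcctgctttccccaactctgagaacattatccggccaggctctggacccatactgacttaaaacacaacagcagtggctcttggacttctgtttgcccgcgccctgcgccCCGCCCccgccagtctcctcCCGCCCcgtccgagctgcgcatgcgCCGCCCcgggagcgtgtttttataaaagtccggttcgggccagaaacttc
Cxcl12: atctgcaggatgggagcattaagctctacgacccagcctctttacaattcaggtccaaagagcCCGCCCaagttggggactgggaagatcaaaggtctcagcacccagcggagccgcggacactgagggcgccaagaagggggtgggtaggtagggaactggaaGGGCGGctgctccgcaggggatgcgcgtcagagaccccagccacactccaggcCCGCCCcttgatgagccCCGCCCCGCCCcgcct
Cxcr4 had 3 GC boxes, the nearest at -50 to -45 from the start. Cxcl12 had 4 places with the motif, the nearest being CCGCCCCGCCC at -16 to -6, where 2 matches overlap.

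Of the 4 atypical receptors, Ackr3, an endothelial scavenger of Cxcl12, was the most abundant and differed little, at 23.7 ± 5.5 FPKM in CTR and 24.8 ± 3.9 FPKM in dKO (SD, n = 6 each). Its difference was 0.078 (SE 0.14, limma adjusted p 0.660). Ackr2, which degrades inflammatory CC ligands in lymphatic endothelium, was at 1.61 to 2.86 FPKM in CTR and 2.58 to 5.47 FPKM in dKO. Of its 6 dKO libraries, 5 were above all CTR libraries, and it was higher by 0.57 (SE 0.14, limma adjusted p 0.00394, exact two-sided permutation p 0.00649). Lymphatic endothelial markers summed to 88.6 to 162 FPKM in CTR and 112 to 226 FPKM in dKO libraries, with 3 of 5 called higher. Their part in the level of Ackr2 was not tested. Ackr1, the chemokine carrier of venules and red cells, was at 0 to 0.463 FPKM in CTR. In dKO it was at 1.26 FPKM in replicate 5, on 31 fragments, and at 0.0403 to 0.128 FPKM in the other dKO libraries. Ackr4 stayed under 0.1 FPKM in each library.

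Replicate 5 of dKO was the highest dKO library for 10 of the 23 genes tested, against 13.1% of all genes tested. It was also the highest for 20 of the 53 genes above 0 in a dKO library, a count for which no share of all such rows is given here. Relative to the median of the other dKO libraries, it was 79.5 times higher for Cxcl1, 58.6 times for Cxcl2, 41.2 times for Cxcl5 and 11.7 times for Cxcl3. The ratios of Ccl20, Ackr1 and Cxcl9, which reached no more than 1.29 FPKM there, were 32.25, 10.6 and 9.73. For Cxcl10, Cxcl13, Ccl7, Ccl2 and Ccl3 the ratios were 7.61, 7.34, 6.72, 6.19 and 3.34. The monocyte attractants Ccl12 and Ccl8 did not follow, at 0.774 and 0.962 times the median of the other dKO libraries. It was also the lowest of the dKO group for Ccl6, Ccr1, Cxcr1 and Cxcr4, and its macrophage marker sum of 2360 FPKM was the lowest of the group, whose part in these levels was not tested. Its neutrophil marker sum (239 FPKM) was the third and its endothelial marker sum (549 FPKM) the second of the 6. Its depth was 17511731 fragments, within the range of the other libraries.

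**Figure D4:**
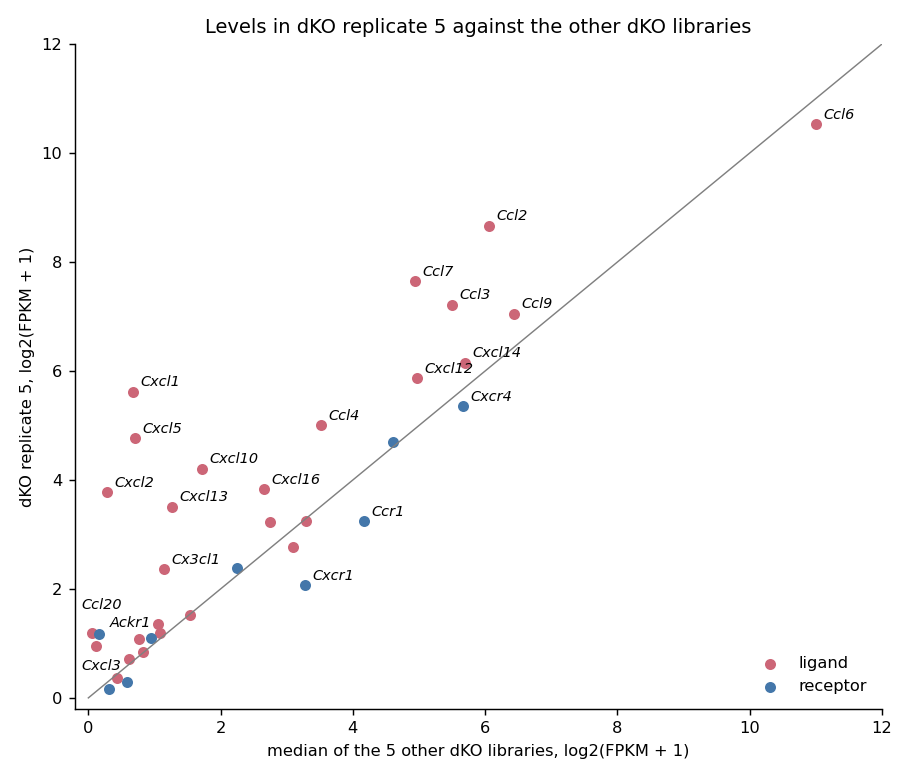
Each point is a ligand (red) or receptor (blue) that reached at least 0.5 FPKM in a dKO library, with the median of the 5 other dKO libraries on the horizontal axis and dKO replicate 5 on the vertical axis, both as log2(FPKM + 1), and a line where they are equal. Cxcl1, Cxcl5 and Cxcl2 lie farthest above the line, at 79.5, 41.2 and 58.6 times the median of the others, while Ccr1, Cxcr1, Cxcr4 and Ccl6 lie below it.

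The genes that carry, present, cut and transmit chemokine signals were described from a list of 53, of which 50 were tested. In dKO, 24 were higher, against 20.4% of all genes tested, and 1 was lower, against 32.6%, with a median difference of 0.28. Without replicate 5, 19 were higher and 2 lower, and the shares of all genes called in that fit are not given here. The test of every row is free of the minimum level, which Mmp12, Rgs1 and Pik3cg reached only through the dKO libraries. In it, 18 of all 53 were higher, against 10.4% of all rows, and 1 lower, against 15.9%. The 3 greatest rises were those of the macrophage elastase Mmp12 (2.67, SE 0.19, limma adjusted p 6.5e-07), the platelet chemokine Pf4, named outside the symbol rule (2.35, SE 0.33, limma adjusted p 8.18e-05), and the heparan sulfate carrier Sdc3 (1.22, SE 0.12, limma adjusted p 7.51e-06). Pf4 was at 15.4 ± 9.9 FPKM in CTR and 75.8 ± 23.9 FPKM in dKO (SD, n = 6 each). Gpc1, another heparan sulfate proteoglycan, was the only one to fall (-0.48, SE 0.08, limma adjusted p 0.000255). Of the effectors of leukocyte migration, 5 of 10 were higher, Rac2, Was, Pik3r5, Pik3cg and Dock2. The others, Plcb2 (-0.21, limma adjusted p 0.396), Elmo1 (0.21, adjusted p 0.216), Plcb3, Rac1 and Cdc42, were not called. Of the G protein subunits, 2 of 7 were higher, of which Gnai1 (limma adjusted p 0.0304) was not called in the test of every row (adjusted p 0.0569). Of the RGS proteins that switch them off, 3 of 5 were higher, but without replicate 5 only Rgs1 was, since the limma adjusted p of Rgs3 became 0.0541 and that of Rgs4 0.0686. Among related proteins, the atypical chemerin receptor Ccrl2 (0.82, limma adjusted p 0.00132) and the Mif receptor Cd74 (0.65, adjusted p 0.00224) were also higher. The endothelial scavenger Gpr182 was called higher with replicate 5 (0.46, limma adjusted p 0.0491) but not without it (0.38, adjusted p 0.105) or in the test of every row (adjusted p 0.103). Mif (0.37, limma adjusted p 0.0578), Rarres2 (0.24, adjusted p 0.584), Cklf (0.11, adjusted p 0.317) and Cmklr1 (-0.34, adjusted p 0.534) did not pass, and Ppbp was too low to test.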

How the data were processed

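RNA of 12 MLEC libraries was sequenced as paired reads of 150 bases. The authors used Trimmomatic to trim the reads and STAR to align them to mm39, kept uniquely aligned reads and deposited FPKM values, which divide fragments by gene length and library total. The submitters' processing notes instead name Bowtie2 2.2.3 and HISAT2 2.1.0, and the extract protocol names retinas, whose markers summed to no more than 0.248 FPKM in any library. The counting program and strand setting are not given in the sources used here. Keeping unique reads lowers genes with near-identical copies.

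Columns were matched to groups through the labels, those of dKO, named after tamoxifen, by elimination. Symbols and positions came from GENCODE on GRCm39, which matched 27706 of 28689 rows. Genes that reached 1 FPKM in 6 or more libraries were compared on log2(FPKM + 1), a pseudocount of 1, with limma 3.58.1 in R 4.3.3 (lmFit, and eBayes with a trend), no covariates and Benjamini-Hochberg adjustment over 12467 genes. Single values had exact two-sided permutation tests over all assignments of 6 libraries of the 12 to a group. The fragments behind the FPKM were recovered as whole numbers within 0.02 for 100% of genes, and served for depth and for limma-voom as an alternative. In that alternative on all rows with at least 10 fragments, added after seeing the data, 47 of the 55 genes were tested and 17 called higher and 2 lower. The share of all rows called in it is not given here, so the count has no background beside it. The limma script was tested on simulated data. Other steps used Python 3.11.15 and BLAST 2.17.0 (copies of at least 95% identity over 300 bases).

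The genes and lists were chosen with earlier results of these data known. Values by library are given for genes past an adjusted p of 0.05 and an absolute difference over 1, and for the 5 of highest mean FPKM. Of the pathway list, the 3 largest rises and falls past the test and all related proteins were to be named. The effectors, G protein subunit and RGS proteins named were added after their values were seen, as were the promoters shown. Replicate numbers are shared by CTR and dKO libraries. The deviations of same-numbered libraries correlated at -0.108 to 0.565, so the numbers were not taken to pair them.

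In the same fit, 5 of 6 mesothelial markers tested, 2 of 3 dendritic cell, 1 of 1 platelet, 1 of 8 lung epithelial and 2 of 7 pericyte and smooth muscle markers were higher in dKO, with 1 of the last lower. Of fibroblast markers, 1 of 7 was higher and 3 lower. B cell and erythroid markers summed to no more than 0.374 and 1.08 FPKM in any library. The result of 1 of the 55 genes is not reported here by name.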

Additional observations from a re-analysis of the deposited data

Results flagged for a closer look

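Each of the 55 genes was examined for a library far from the others of its group, by Dixon's test at its 95% critical value for 6 libraries. Of 54 groups whose highest library reached 1 FPKM, 20 had such a library. The 95% level gives about 2.7 for normal, independent and unselected groups, which these are not. For example, the dKO groups of Cxcl1, Cxcl2, Ccl20 and Ackr1 reached 1 FPKM only through the library then flagged. No comparison with chance is therefore drawn. In 12 of the 20 groups the flagged library was replicate 5 of dKO. There Cxcl1 was at 48.1 FPKM (0.304 to 0.684 FPKM in the other 5), Cxcl5 at 26.3 FPKM (0.329 to 1.94), Cxcl2 at 12.6 FPKM (0 to 0.385) and Ccl20 at 1.29 FPKM (0 to 0.0453). Ccl2 was at 406 FPKM (50.9 to 91.4), Ccl7 at 199 FPKM (23.3 to 48.7) and Ccl3 at 147 FPKM (38.3 to 66.4). Cxcl10 was at 17.4 FPKM (1.19 to 6.21), Cxcl13 at 10.4 FPKM (0.112 to 2.18) and Cxcl16 at 13.3 FPKM (4.82 to 6.50). Cx3cl1 was at 4.14 FPKM (1.04 to 2.13) and Ackr1 at 1.26 FPKM (0.0403 to 0.128).

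The other 8 were spread over 6 libraries. In replicate 4 of CTR, Ccl11 was at 12.4 FPKM (1.03 to 4.43 in the other 5) and Cxcl15 at 35.0 FPKM (3.48 to 15.0). In replicate 4 of dKO, Ccl11 was at 4.12 FPKM (0 to 0.943) and Ackr3 at 32.3 FPKM (21.8 to 24.8). Ccl9 was at 20.7 FPKM in replicate 1 of CTR (10.3 to 14.2), Ccl25 at 1.07 FPKM in replicate 3 of CTR (0.769 to 0.860), Ccl4 at 1.95 FPKM in replicate 5 of CTR (0.0869 to 0.347) and Ccl5 at 2.79 FPKM in replicate 3 of dKO (0.871 to 1.55). Ccl4 and Ccl5 did not overlap between the groups with these libraries included.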

How the results depend on the processing

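Of the 23 genes tested, 21 kept their side of the threshold and their direction under every alternative that could test them (other pseudocount, filters, scalings, limma-voom, the replicate block, each library left out), and none reversed. Ccl11 lost its call in 12 of 20 alternatives (differences -2.30 to -0.80, limma adjusted p 0.000854 to 0.102). Cxcl14 passed only without replicate 4 of CTR (-0.72, limma adjusted p 0.0473; over its alternatives, 0.0473 to 0.73). The number of the genes called, 15 in all libraries, was 14 to 15 with a library left out and 10 (FPKM of at least 5) to 20 (every row) otherwise. The number past the fold threshold, 11 in all libraries, was 10 to 11 with a library left out and 9 to 15 otherwise. Of the pathway list, 25 genes were called, 21 to 27 with a library left out, and 15 of the 36 genes with at least 5 FPKM, where fewer were tested. Sp1 passed under each alternative (-1.04 to -0.86, limma adjusted p 3.54e-06 to 0.000119). Sp3 ranged from -0.18 to -0.11 with a library left out and passed only without replicate 6 of CTR (-0.18, limma adjusted p 0.0326; over its alternatives, 0.0326 to 0.525), for which the cause was not tested.

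With the replicate number as a block, 15 genes of the set were called, 13 higher and 2 lower, with 11 past the fold threshold, and 29 of the pathway list. Shares of all genes called are given only for the main fit and the test of every row. The counts of the other alternatives therefore have no background beside them. Libraries share only a number, and a library correlated best with its own number in 2 of 6 pairs. With promoters of 250 bases before the start alone, 8 in place of 9 genes had a GC box and the other motifs were unchanged in number. Genes with few fragments, such as Ccl12 and Ccl4 in CTR, have levels set by counting error, so their ratios are imprecise.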
